A study of Mus musculus with 4 samples.

Results

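RNA levels of 39 genes that encode subunits of ATP-dependent chromatin remodelling complexes were measured in mouse embryonic stem (ES) cells with and without knockdown of Atad2. The 39 genes were taken from a list of subunits, which was chosen with earlier results of these data known. They were 13 subunits of SWI/SNF, 8 subunits of NuRD other than its ATPases and 7 ATPases of the CHD family. The rest were 2 ISWI ATPases, 7 subunits of the INO80, SRCAP and TIP60 complexes and 2 further SNF2-type ATPases, Hells and Smarcad1. The 39 genes are set against 10935 genes that could be tested. The cells were of the 46C line, an ES cell line grown in medium with serum and LIF, and in all 4 libraries they carried a knock-in that adds a TAP tag (a tag for tandem affinity purification) to Atad2. The si-ctrl group (2 libraries) had received a scrambled, inactive siRNA and the si-Atad2 group (2 libraries) an active siRNA against Atad2, an AAA ATPase with a bromodomain that binds acetylated chromatin. The labels name a single active siRNA and the study's text speaks of 2. The paper also states that every RNA sample went through sequencing 2 times, so libraries of a group may come from the same RNA sample. Which siRNA was used in which library, and whether the libraries of a group came from separate transfections, is not given in the sources. The p-values therefore measure the spread between these libraries, which may be technical.

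Remodelling complexes use the energy of ATP to slide, evict, space or exchange nucleosomes, and each is built around an ATPase of the SNF2 family. SWI/SNF opens chromatin at enhancers and promoters, NuRD couples remodelling to histone deacetylation, ISWI enzymes space nucleosomes, and INO80, SRCAP and TIP60 handle the histone variant H2A.Z. ES cells are known for a particular form of SWI/SNF, esBAF, which is built with Smarcc1 and Arid1a rather than with their paralogues Smarcc2 and Arid1b.

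Levels are FPKM, fragments per kilobase of a transcript after scaling for the size of the library, summed over a gene's transcripts of 200 bases or more. They are normalised for length, so different genes can be set side by side. Between libraries they also depend on how each run of the authors' software scaled them. Comparisons of libraries from different runs, such as whether groups overlap, rest on that scaling. The authors' comparison software ran on 1 si-Atad2 and 1 si-ctrl library at a time, which makes pair 1 and pair 2, and changes are given as log2((si-Atad2 FPKM + 1)/(si-ctrl FPKM + 1)) within a pair. The targeted gene itself was lower in both si-Atad2 libraries, with 34.1 and 36.0 FPKM in si-ctrl and 10.1 and 13.0 FPKM in si-Atad2 (log2 ratio -1.53, SE 0.08, adjusted p = 9.4e-06 by limma; 0.055 without si-ctrl 1 and 0.054 without si-ctrl 2). In such bulk RNA, fewer cells that express a gene and less RNA per cell cannot be told apart. The 10 ES cell markers examined were present in every library, with Pou5f1 between 701.1 and 806.9 FPKM. Their summed level was 3312 and 3366 FPKM in si-ctrl and 3124 and 3155 FPKM in si-Atad2, with Nanog at 84.4% and Pou5f1 at 90.9% of si-ctrl (adjusted p = 0.12 and 0.24 by limma); the part of this difference in the results below was not tested. Of 10 markers of differentiated cells, 7 were under 1 FPKM in every library and the list summed to 6.79 to 7.003 FPKM. Of 7 fibroblast markers, 5 were under 1 FPKM in every library, and the list summed to 7.18 to 8.51 FPKM, most of it Thy1.

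The promoter letters that RefSeq gives for these genes (build GRCm38.p6) are shown first, for the 2 lowest and 2 highest log2 ratios among members with a single entry whose si-Atad2 and si-ctrl libraries did not overlap. Each is the run of 250 bases before the start that the RefSeq table uses, written 5′ to 3′ on the gene's strand. Capitals mark matches on either strand to the CCAAT box (CCAAT), the Sp1 site (GGGCGG) and the ETS site (CCGGAAG); where 2 matches overlap they form 1 run of capitals. The windows are chr12:113098028-113098277 on the plus strand for Mta1, chr7:45434465-45434714 on the minus strand for Ruvbl2, chr19:8941670-8941919 on the plus strand for Mta2 and chr19:38930740-38930989 on the plus strand for Hells. The window of Ruvbl2 lies inside the GENCODE gene given below (45421760 to 45438096), which starts further upstream, and those of Mta2 and Hells reach past the GENCODE start.
Mta1: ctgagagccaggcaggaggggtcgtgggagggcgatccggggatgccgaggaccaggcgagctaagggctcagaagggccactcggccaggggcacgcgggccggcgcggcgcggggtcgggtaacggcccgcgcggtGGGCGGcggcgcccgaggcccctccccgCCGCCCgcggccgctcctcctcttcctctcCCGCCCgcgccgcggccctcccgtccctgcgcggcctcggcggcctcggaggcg
Ruvbl2: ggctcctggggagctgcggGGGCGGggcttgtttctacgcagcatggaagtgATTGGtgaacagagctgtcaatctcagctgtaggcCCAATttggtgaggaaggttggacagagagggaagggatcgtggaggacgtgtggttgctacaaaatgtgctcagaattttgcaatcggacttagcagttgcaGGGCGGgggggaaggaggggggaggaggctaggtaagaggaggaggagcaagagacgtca
Mta2: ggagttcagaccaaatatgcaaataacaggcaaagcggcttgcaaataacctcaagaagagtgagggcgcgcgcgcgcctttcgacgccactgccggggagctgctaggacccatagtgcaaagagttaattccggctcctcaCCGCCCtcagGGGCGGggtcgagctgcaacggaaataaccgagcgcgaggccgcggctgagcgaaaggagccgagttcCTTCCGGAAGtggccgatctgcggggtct
Hells: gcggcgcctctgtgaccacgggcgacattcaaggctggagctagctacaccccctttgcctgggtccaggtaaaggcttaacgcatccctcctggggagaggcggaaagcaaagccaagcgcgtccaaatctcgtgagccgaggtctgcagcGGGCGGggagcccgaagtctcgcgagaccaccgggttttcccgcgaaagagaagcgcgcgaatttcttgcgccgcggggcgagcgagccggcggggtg

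Entries were found for 30 of the 39 genes; those without one were Smarce1, Arid2, Chd1, Chd2, Chd3, Chd7, Mta3, Actr5 and Actr8. Where a gene had several entries, its highest CG count and GC content were taken, and letters found in any entry counted. Most of these genes had a window rich in the dinucleotide CG. The median over the 30 was 23.5 CG per 250 bases, against 6 over all 27025 genes with an entry. The median GC content was 67.6% against 52.8%. The 27025 genes were not limited to those tested for a change, and how the tested genes alone compare was not tested. Exceptions were Smarcd2 with 4 CG and Ruvbl1 and Smarca1 with 6 each. The Sp1 letters occurred in 26 of the 30 (86.7%) and in 35.4% of all genes. By contrast, the CCAAT letters were found in 40% of the 30 and 37.5% of all genes, TATAAA in 10% and 14.3%, the ETS letters in 10% and 7.83%, and the E-box CACGTG in 3.33% and 6.86%. The letters of the YY1 site (AAGATGGCG) were in no window of the 30 genes and in 0.71% of all genes. Among the windows printed, Mta1 (lower in si-Atad2) held 39 CG, Ruvbl2 (also lower) 8, Mta2 (higher) 24 and Hells (higher) 28. None of these genes passed an adjusted p of 0.05 by limma, and the log2 ratio of Mta2 in pair 1 was only 0.0046.

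All 39 genes had at least 1 named transcript, and their si-ctrl levels spanned from 2.81 FPKM for Smarcd3 to 167.4 FPKM for Ruvbl2, with a median of 26.5 FPKM over the 38 that were tested against 9.87 FPKM over all genes tested. The 5 highest were Ruvbl2, Rbbp7, Chd4, Hells and Rbbp4, and the 5 lowest were Smarcd3, Arid1b, Chd3, Smarcc2 and Actr5. Replicates lay close together: the median absolute difference between the si-ctrl libraries was 0.041 on the log2 scale for the members and 0.058 for all genes, and that between the si-Atad2 libraries 0.031 for the members and 0.081 for all genes.

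**Figure D1:**
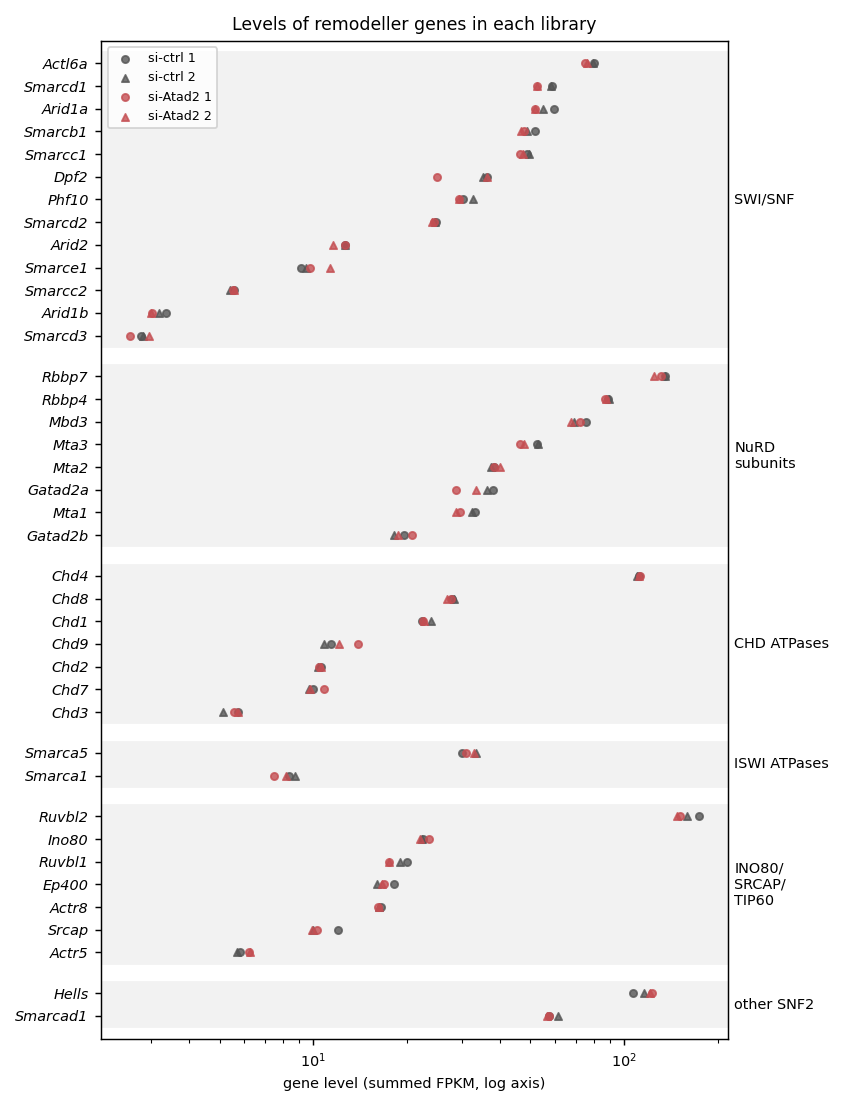
Level of each of the 39 remodeller genes in each library, in summed FPKM on a log axis, grouped by complex and ordered by si-ctrl level. Grey points are si-ctrl and red points si-Atad2 libraries, with circles for pair 1 and triangles for pair 2; for most genes the 4 points lie almost on top of each other, while levels between genes span from 2.81 to 167.4 FPKM in si-ctrl.

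Among the 13 listed SWI/SNF subunits, Actl6a, the actin-related subunit, had the highest si-ctrl level with 79.8 and 79.5 FPKM. Smarcd1 (58.5 and 58.1 FPKM) and Arid1a (59.3 and 54.9 FPKM), the DNA-binding subunit that defines the BAF form, came next, and their libraries overlapped. So did those of Smarcb1 (51.6 and 48.6 FPKM) and Smarcc1 (48.7 and 49.3 FPKM), both core scaffold subunits. Below them, without overlap between neighbours, stood Dpf2 (36.2 and 35.2 FPKM), a PHD-finger subunit of BAF, Phf10 (30.4 and 32.7 FPKM), its counterpart in the PBAF form, and Smarcd2 (24.9 and 24.6 FPKM). Arid2, which defines PBAF, was at 12.6 and 12.7 FPKM. Smarce1, a DNA-binding core subunit with an HMG domain, was at 9.15 and 9.46 FPKM, and a processed pseudogene of that name is annotated, so that reads could have been split between them. The paralogues Smarcc2 (5.58 and 5.39 FPKM), Arid1b (3.36 and 3.20 FPKM) and Smarcd3 (2.79 and 2.83 FPKM) closed the list.

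Among NuRD subunits the histone-binding WD40 proteins Rbbp7 (135.9 and 135.3 FPKM) and Rbbp4 (88.6 and 89.8 FPKM), which are shared with several other chromatin complexes, were highest. Mbd3, the methyl-CpG-binding-domain subunit, followed with 75.2 and 69.2 FPKM. The metastasis-associated scaffold proteins were ordered Mta3 (52.3 and 52.8 FPKM), Mta2 (38.2 and 37.2 FPKM) and Mta1 (33.2 and 32.5 FPKM), with no overlap between them. Gatad2a (37.8 and 36.3 FPKM) overlapped with Mta2, and Gatad2b was at 19.6 and 18.2 FPKM.

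Of the listed ATPases, Chd4, the main motor of NuRD, stood far above the rest of its family with 111.6 and 110.2 FPKM. Hells, an SNF2-type factor needed for DNA methylation, was at the same height (106.5 and 115.7 FPKM, overlapping Chd4). Smarcad1, which helps to keep silent chromatin through replication, was at 57.3 and 61.4 FPKM and Smarca5, the main ISWI enzyme of most cell types, at 30.03 and 33.44 FPKM; a pseudogene of its name is annotated too. Then came Chd8 (28.0 and 28.3 FPKM), a CHD protein that restrains Wnt target genes, and, with overlapping libraries, Chd1 (22.3 and 23.9 FPKM), which binds methylated H3K4, and Ino80 (22.6 and 22.4 FPKM), the motor of the INO80 complex. Ep400, the ATPase of the TIP60 complex, was at 18.2 and 16.1 FPKM and Srcap at 12.03 and 10.01 FPKM; only short forms of Srcap, whose locus overlaps Gm42715, were named. Chd9 (11.4 and 10.8 FPKM), Chd2 (10.6 and 10.3 FPKM) and Chd7 (9.98 and 9.68 FPKM), which acts at enhancers, followed. Lowest were Smarca1, the second ISWI enzyme (8.34 and 8.77 FPKM), and Chd3, an alternative motor of NuRD (5.73 and 5.12 FPKM). The AAA ATPases Ruvbl1 and Ruvbl2, which form a common hetero-hexameric ring in INO80, SRCAP and TIP60, were listed at very different levels, Ruvbl1 at 20.1 and 19.1 FPKM and Ruvbl2 at 174.8 and 159.9 FPKM. The Ruvbl2 locus overlaps Gys1 and Lhb, and its transcripts were named by their length among the genes of that locus. The actin-related subunits of INO80 were at 16.5 and 16.3 FPKM (Actr8) and 5.80 and 5.71 FPKM (Actr5).

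On knockdown of Atad2, none of the 38 tested members changed past an adjusted p of 0.05 (limma, Benjamini-Hochberg over all genes), where 202 of all 10935 genes did (1.85%; 157 higher and 45 lower). The lowest adjusted p of a member was 0.18, for Chd9. At an unadjusted p under 0.05 there were 9 members (23.7%), Arid1a, Chd9, Dpf2, Hells, Mta1, Mta3, Ruvbl1, Ruvbl2 and Smarcd1, against 16.0% of all genes. That count was 3 of the 38 under TPM (14.9% of all genes) and 3 with eBayes without a trend (14.9%). It was 6 with median of ratios (15.2%), 6 with the GC trend removed (16.8%) and 6 with transcripts of all lengths (12.8%). Without the replicate block it was 8 (16.1%). The members' share was thus above that of all genes in some fits, the main fit among them, and below it in others. Log2 ratios of the members ran from -0.24 (Dpf2) to 0.21 (Chd9) and 25 of 38 (65.8%) were within 0.1 of 0, as were 62.8% of all genes. With si-Atad2 1 left out, 1 member passed (Smarce1, log2 ratio 0.26, adjusted p = 0.014 by limma) where 7.01% of all genes did. With si-Atad2 2 left out, 3 passed where 18.6% of all genes did, namely Dpf2 (-0.49, adjusted p = 3.5e-10), Chd9 (0.30, adjusted p = 0.00063) and Mta3 (-0.18, adjusted p = 0.049). Without si-ctrl 1 or without si-ctrl 2, no gene at all passed. In these fits of 3 libraries the lone library was assumed to vary like the other group. The 39th member, Gatad2a, was not tested because the authors' tables mark all of its transcripts as failed estimates in si-ctrl; it was listed at 37.8 and 36.3 FPKM in si-ctrl and at 28.9 and 33.3 FPKM in si-Atad2.

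**Figure D2:**
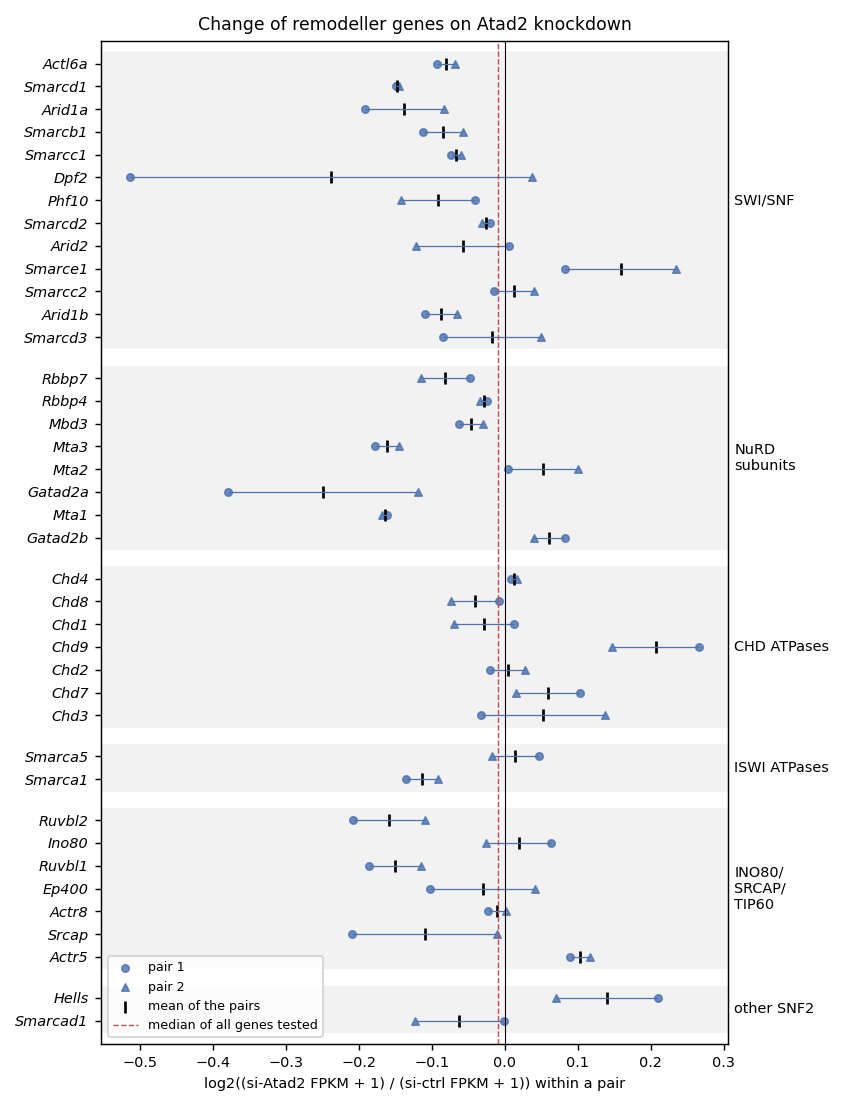
Log2((si-Atad2 FPKM + 1)/(si-ctrl FPKM + 1)) of each of the 39 genes in pair 1 (circles) and pair 2 (triangles), with their mean (black bar), grouped by complex; the dashed line is the median of all genes tested. Most genes lie within 0.1 of 0, Dpf2 has its pairs 0.55 apart, and Gatad2a is drawn although its estimates were marked as failed in si-ctrl.

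The median log2 ratio of the 38 members was -0.035 (pair 1, -0.028; pair 2, -0.030), and that of all genes tested -0.0086. Both si-Atad2 libraries lay below both si-ctrl libraries for 17 members (44.7%), against 26.7% of all genes, and above them for 5 members (13.2%), against 22.2% of all genes. These counts moved with the scaling, for the members and for all genes alike. Summed FPKM over transcripts of 200 bases or more was 2.42% lower in si-Atad2, a log2 ratio of -0.035. When each library was rescaled to TPM, which sets that sum equal, 12856 genes were tested, so all genes here are a different set. The members' median became -0.0016 (all genes, 0.029). Of the 38 members, 11 lay below (16.6% of all genes) and 11 above (31.4% of all genes). The counts also moved with the level of the genes. Among the 14 members between 30 and 100 FPKM in si-ctrl the median was -0.083, against -0.037 for the 1760 genes of that range, and 10 of the 14 were lower in both si-Atad2 libraries, against 36.8% of those genes. Among the 12 members between 10 and 30 FPKM the median was -0.027, against -0.021, and 3 were lower in both si-Atad2 libraries (25%, against 29.9%). For the 8 members between 1 and 10 FPKM the median was 0.033, against 0.016, and 2 were lower in both (25%, against 20.05%). For the 4 above 100 FPKM it was -0.034, against -0.066, and 2 were lower in both (50%, against 49.0%). The larger share of lower members was thus seen in the range of 30 to 100 FPKM.

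**Figure D3:**
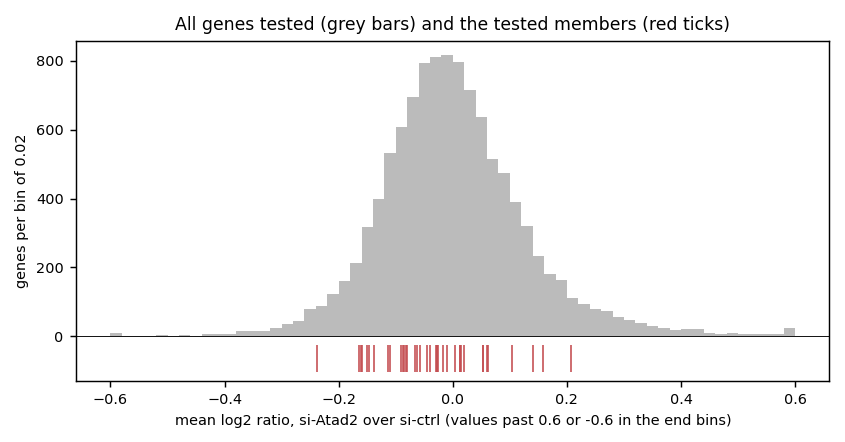
Number of genes per bin of mean log2 ratio (si-Atad2 over si-ctrl) for the 10935 genes tested, with values past 0.6 or -0.6 gathered in the end bins, and the 38 tested members as red ticks under the axis. The members lie between -0.24 and 0.21, inside the bulk of the distribution.

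SWI/SNF subunits had a median log2 ratio of -0.081, and 11 of 13 were negative (84.6%), against 53.3% of all genes tested. In both pairs 8 of the 13 were negative. Their median si-ctrl level was 31.5 FPKM, and all genes between 30 and 100 FPKM had a median log2 ratio of -0.037. Under TPM 9 of 13 were negative, with a median of -0.046 against 0.029 for all genes. The share of all genes negative under TPM is not given here. None of the 13 subunits passed the test. The lowest, Dpf2, rested on 1 library: it was at 36.2 and 35.2 FPKM in si-ctrl, 25.1 FPKM in si-Atad2 1 and 36.1 FPKM in si-Atad2 2 (log2 ratio -0.24, SE 0.10, adjusted p = 0.30 by limma). Only si-Atad2 1 was low, and the other 3 libraries lay between 35.2 and 36.2 FPKM. The difference lay in the main transcript of 2690 bases, which makes up 93.2% to 95.6% of the gene's FPKM. This form was at 23.3 FPKM in si-Atad2 1 (authors' 95% interval 22.5 to 24.2) and at 34.2 FPKM in si-Atad2 2 (33.1 to 35.3). The gap of 0.55 between the pairs was larger than that of 99.3% of all genes tested. No other tested member exceeded the 95th percentile of this gap over all genes (0.34), the next largest being 0.20 for Srcap. Dpf2 lies on chromosome 19 (GRCm38, 5896516 to 5913010).

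Smarcd1, a bridging subunit that contacts transcription factors, was at 58.5 and 58.1 FPKM in si-ctrl and 52.6 and 52.4 FPKM in si-Atad2. Its replicates were nearly identical and the groups did not overlap (log2 ratio -0.15, SE 0.06, adjusted p = 0.25 by limma). Arid1a was at 59.3 and 54.9 FPKM in si-ctrl and 51.8 and 51.8 FPKM in si-Atad2 (log2 ratio -0.14, SE 0.06, adjusted p = 0.31). Here too the groups did not overlap, but the si-ctrl libraries were further apart than the si-Atad2 libraries. Its listed forms differed in opposite directions, a feature picked out after the values were seen. The form of 7419 bases was at 50.4 and 48.9 FPKM in si-ctrl and 42.1 and 41.0 FPKM in si-Atad2, while the form of 8187 bases was at 2.31 and 1.82 FPKM in si-ctrl and 4.88 and 4.39 FPKM in si-Atad2. A further form of 8175 bases was at 6.61 and 4.23 FPKM in si-ctrl and 4.80 and 6.40 FPKM in si-Atad2, with overlapping groups; the division of reads among such similar forms is an estimate, and no test was run on it.

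In the remaining SWI/SNF subunits the differences were smaller. Both si-Atad2 libraries were below both si-ctrl libraries for Actl6a (74.7 and 75.8 FPKM in si-Atad2), Smarcb1 (47.6 and 46.6), Smarcc1 (46.2 and 47.3), Phf10 (29.5 and 29.5), Smarcd2 (24.6 and 24.1) and Arid1b (3.04 and 3.01), with log2 ratios between -0.092 (Phf10) and -0.026 (Smarcd2). Arid2 (12.7 and 11.6 FPKM), Smarcd3 (2.57 and 2.96 FPKM) and Smarcc2 (5.51 and 5.57 FPKM) overlapped with their si-ctrl values. For the lowest members, the log2 ratio was -0.09 for Arid1b (SE 0.08, adjusted p = 0.65 by limma), 0.01 for Smarcc2 (SE 0.08, adjusted p = 0.96) and -0.02 for Smarcd3 (SE 0.08, adjusted p = 0.94). Under TPM the signs of Smarcd2 and Smarcd3 turned, to 0.0085 and 0.0096.

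A single SWI/SNF member lay above si-ctrl in both si-Atad2 libraries. Smarce1 was at 9.15 and 9.46 FPKM in si-ctrl and 9.75 and 11.3 FPKM in si-Atad2 (log2 ratio 0.16, SE 0.07, adjusted p = 0.33 by limma). The si-Atad2 libraries differed from each other by more than the nearest libraries of the 2 groups did.

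**Figure D4:**
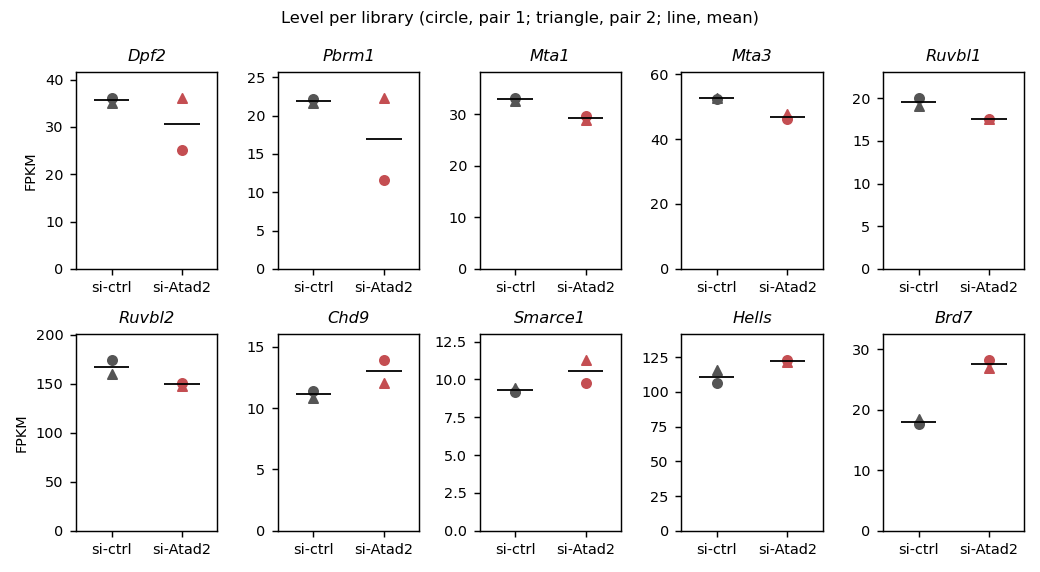
FPKM of 10 genes in each library, on axes that start at 0; grey points are si-ctrl and red points si-Atad2, with circles for pair 1, triangles for pair 2 and a line at the group mean. In Dpf2 and Pbrm1 the single library si-Atad2 1 is low (25.1 and 11.6 FPKM), while for Mta1, Mta3, Ruvbl1, Ruvbl2, Chd9, Smarce1, Hells and Brd7 the groups do not overlap.

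NuRD subunits had a median log2 ratio of -0.046, and 5 of the 7 tested were negative (71.4%), against 53.3% of all genes tested. The same 5 were negative in both pairs, against 3727 of all 10935 genes. Under TPM the median was -0.011 (all genes, 0.029) and 4 of the 7 were negative, a count for which the share of all genes is not given here. The MTA scaffold proteins had ratios of different sign. Mta1 was at 33.2 and 32.5 FPKM in si-ctrl and 29.6 and 28.8 FPKM in si-Atad2 (log2 ratio -0.16, SE 0.06, adjusted p = 0.23 by limma). Mta3 was at 52.3 and 52.8 FPKM in si-ctrl and 46.1 and 47.7 FPKM in si-Atad2 (log2 ratio -0.16, SE 0.06, adjusted p = 0.22). Both genes stood at about 89% of si-ctrl (88.9% and 89.2%), without overlap of the groups. Mta2, in contrast, was at 38.2 and 37.2 FPKM in si-ctrl and 38.3 and 40.0 FPKM in si-Atad2 (log2 ratio 0.05, SE 0.06, adjusted p = 0.73). The genes are on chromosomes 12 (113098278 to 113137206, Mta1), 17 (83706163 to 83821516, Mta3) and 19 (8941875 to 8952303, Mta2) of GRCm38.

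Rbbp7 was at 131.5 and 124.8 FPKM in si-Atad2, below both si-ctrl values (log2 ratio -0.081), and Rbbp4 at 87.1 and 87.7 FPKM (-0.028). Mbd3 (71.96 and 67.74 FPKM) and Gatad2b (20.8 and 18.7 FPKM) overlapped with si-ctrl. None of these differences passed the test, with an adjusted p by limma of 0.53 for Rbbp7 (SE 0.06), 0.86 for Rbbp4 (SE 0.06) and 0.70 for Gatad2b (log2 ratio 0.06, SE 0.07), and the ratio of Rbbp4 turned to 0.0065 under TPM.

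Among the CHD ATPases, most levels were alike in the groups. Chd4 was at 112.2 and 111.5 FPKM in si-Atad2, within 0.02 of its si-ctrl level on the log2 scale in each pair. Its log2 ratio was 0.01 (SE 0.06, adjusted p = 0.94 by limma). Chd3, the lowest of the listed CHD genes, had a log2 ratio of 0.05 (SE 0.08, adjusted p = 0.80 by limma). The median of the 7 was 0.013. Chd1 (22.5 and 22.7 FPKM in si-Atad2), Chd2 (10.5 and 10.6), Chd3 (5.58 and 5.73) and Chd7 (10.8 and 9.80) overlapped with si-ctrl, and Chd8 (27.8 and 26.9) was lower in both libraries with a log2 ratio of -0.041. Chd9, a CHD protein related to Chd7 and Chd8, had the highest log2 ratio of all members. It was at 11.4 and 10.8 FPKM in si-ctrl and 14.0 and 12.1 FPKM in si-Atad2 (log2 ratio 0.21, SE 0.07, adjusted p = 0.18 by limma; chromosome 8, 90828352 to 91054516 in GRCm38). Both si-Atad2 libraries were above both si-ctrl libraries, more so si-Atad2 1.

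The ISWI ATPases and the remaining SNF2 enzymes had ratios of either sign. Smarca5 (31.1 and 33.0 FPKM in si-Atad2) overlapped with si-ctrl, whereas Smarca1 was at 7.51 and 8.16 FPKM, below both si-ctrl values (log2 ratio -0.11, adjusted p = 0.48 by limma). Hells was at 106.5 and 115.7 FPKM in si-ctrl and 123.3 and 121.5 FPKM in si-Atad2 (log2 ratio 0.14, SE 0.06, adjusted p = 0.29). The log2 ratio was larger in pair 1 (0.21, against 0.07 in pair 2), where its si-ctrl library was the lower one. Smarcad1 was at 57.29 and 56.33 FPKM in si-Atad2 against 57.34 and 61.42 FPKM in si-ctrl, so that its non-overlap in pair 1 was a matter of 0.001 on the log2 scale.

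In the INO80, SRCAP and TIP60 group the median log2 ratio was -0.030 (0.0035 under TPM), and the ring ATPases had the lowest values. Ruvbl1 was at 20.1 and 19.1 FPKM in si-ctrl and 17.5 and 17.5 FPKM in si-Atad2 (log2 ratio -0.15, SE 0.07, adjusted p = 0.30 by limma). Ruvbl2 was at 174.8 and 159.9 FPKM in si-ctrl and 151.3 and 148.2 FPKM in si-Atad2 (log2 ratio -0.16, SE 0.06, adjusted p = 0.21). They stood at 89.6% and 89.4% of si-ctrl, although Ruvbl2 was listed at 8.4 to 8.7 times the level of Ruvbl1. In neither gene did the groups overlap. Ruvbl1 lies on chromosome 6 (88465409 to 88497572) and Ruvbl2 on chromosome 7 (45421760 to 45438096) of GRCm38.

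The other subunits of this group were closer to si-ctrl. Ino80 (23.6 and 22.0 FPKM in si-Atad2), Ep400 (16.9 and 16.6), Actr8 (16.2 and 16.3) and Srcap (10.3 and 9.93) overlapped with si-ctrl. Actr5 was at 5.80 and 5.71 FPKM in si-ctrl and 6.23 and 6.27 FPKM in si-Atad2, higher in both pairs (log2 ratio 0.10, SE 0.07, adjusted p = 0.54 by limma). The signs of Ep400 and Actr8, both near 0, turned under TPM, to 0.0035 and 0.024.

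Several paralogous subunits take the same place in alternative forms of a complex. The balance of paralogues was therefore compared within each library, as log2 of the first over the second with 1 FPKM added to each. Not all pairs compared are such alternatives, since Ruvbl1 and Ruvbl2 are parts of the same ring. Such a ratio does not depend on how a library was scaled, apart from the added 1 FPKM. Of 14 pairs, 8 had balances that did not overlap between the groups, 3 higher and 5 lower in si-Atad2. With 2 libraries against 2, the exact two-sided permutation test cannot go below p = 0.33, so no pair could pass (p adjusted over the 14 pairs, 0.58 or more). For single genes, non-overlap was found for 22.2% (above) and 26.7% (below) of all genes tested.

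The widest balances in si-ctrl were Smarcd1 over Smarcd3 (20.96 and 20.53 times), Chd4 over Chd3 (19.5 and 21.5 times) and Arid1a over Arid1b (17.7 and 17.2 times). Smarcc1 exceeded Smarcc2 8.74 and 9.15 times, and Smarca5 exceeded Smarca1 3.60 and 3.81 times. Each of these orders was the same in both si-Atad2 libraries. Mta2 against Mta1 differed most between the groups among the pairs with no failed estimates: its balance was 0.20 and 0.19 in si-ctrl and 0.36 and 0.46 in si-Atad2, a difference of 0.22. Mta2 against Mta3 went from -0.44 and -0.49 to -0.26 and -0.25, a difference of 0.21. The replicates of these balances were within 0.10 of each other. Smarca5 over Smarca1 was higher by 0.13 in si-Atad2.

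In the other direction, Smarcd1 over Smarcd2 was 1.20 and 1.20 in si-ctrl and 1.07 and 1.09 in si-Atad2, a difference of -0.12. Smarcd1 over Smarcd3 differed by -0.13, Smarcc1 over Smarcc2 by -0.08 and Arid1a over Arid1b by -0.05, so that in each of these SWI/SNF pairs the balance was closer to 0 in si-Atad2. The balance of Gatad2a over Gatad2b differed by -0.31 but rests on the failed estimates of Gatad2a. In the 6 remaining pairs (Arid1a over Arid2, Dpf2 over Phf10, Chd4 over Chd3, Chd1 over Chd2, Rbbp4 over Rbbp7 and Ruvbl1 over Ruvbl2) the groups overlapped. The smallest difference was that of Ruvbl1 over Ruvbl2, 0.008 (-3.06 and -3.01 in si-ctrl, -3.04 and -3.01 in si-Atad2).

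**Figure D5:**
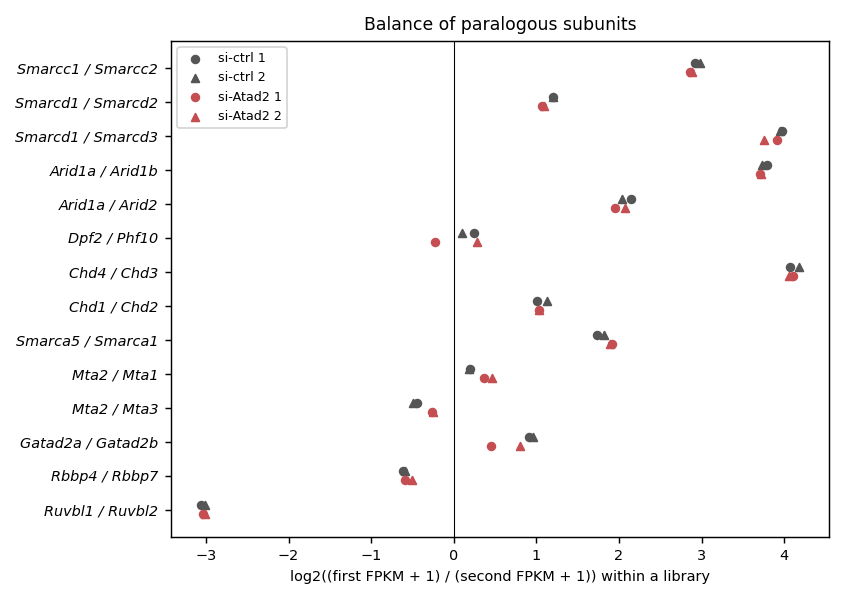
Log2 balance of 14 pairs of paralogous subunits in each library, with 1 FPKM added to each level; grey points are si-ctrl and red points si-Atad2, circles pair 1 and triangles pair 2, and 0 marks equal levels. The balances range from about -3.06 (Ruvbl1 over Ruvbl2) to 4.18 (Chd4 over Chd3), and the differences between the groups, such as 0.22 for Mta2 over Mta1, are small beside that range.

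A second list held 67 further remodeller genes, of which 63 could be tested. Their median log2 ratio was -0.010 and 1 of the 63 passed the test, higher in si-Atad2, where 1.85% of all genes passed. At an unadjusted p under 0.05 by limma there were 13 of 63 (20.6%), against 16.0% of all genes. The gene that passed was Brd7, a bromodomain subunit of PBAF, at 17.6 and 18.4 FPKM in si-ctrl and 28.3 and 26.8 FPKM in si-Atad2. Both si-Atad2 libraries were well above si-ctrl (log2 ratio 0.59, SE 0.07, adjusted p = 0.0022 by limma). This call was lost without si-ctrl 1 (adjusted p = 0.17) and without si-ctrl 2 (adjusted p = 0.15), as it was without a filter on level (adjusted p = 0.51) and with transcripts of all lengths (adjusted p = 0.065).

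The next highest was Trrap, the large scaffold of the TIP60 complex, with 17.1 and 16.7 FPKM in si-ctrl and 20.3 and 20.5 FPKM in si-Atad2 (log2 ratio 0.26, SE 0.07, adjusted p = 0.083). The lowest was Pbrm1, the polybromo subunit of PBAF, with 22.2 and 21.7 FPKM in si-ctrl, 11.6 FPKM in si-Atad2 1 and 22.4 FPKM in si-Atad2 2 (log2 ratio -0.42, SE 0.15, adjusted p = 0.22). As in Dpf2, only si-Atad2 1 was low, and the gap of 0.92 between the pairs exceeded that of 99.9% of genes. Pbrm1 overlaps the coding genes Gnl3 and Smim4, so its level is uncertain. Ino80c, an INO80 subunit, was at 8.54 and 8.99 FPKM in si-ctrl and 6.91 and 8.38 FPKM in si-Atad2 (log2 ratio -0.18, SE 0.08, adjusted p = 0.28).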

How the data were processed

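TruSeq RNA libraries were made from total RNA and sequenced together in a single lane with paired ends of 50 cycles. The labels name TopHat, Cuffdiff and the build mm9, and the paper's supplement names Bowtie, without versions. The deposited loci are those of GRCm38: 60.2% of 15861 loci with 1 coding gene had both ends within 100 bases of the GENCODE vM21 gene. The authors deposited FPKM for 59120 transcripts, scaled within each Cuffdiff run of 1 si-Atad2 and 1 si-ctrl library, with 95% confidence intervals and a status. Their p-values and fold changes were not used. The tables give no counts, so depth is unknown, and use of strand is not stated, so that 10 members which overlap another coding gene (Ruvbl2, Actr8, Srcap, Rbbp7, Rbbp4, Actl6a, Smarcd1, Smarcc1, Phf10 and Smarcd3) are uncertain.

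Transcripts were named from GENCODE vM21 by length within 3 bases (14923) or as the locus's only coding gene (28557). After 4 members (Smarcd1, Smarcd3, Rbbp7 and Ruvbl2) were found without a name, 38 more were named as the only transcript at the locus and 4048 by the nearest length within 10%. FPKM were summed per gene. Genes qualified for testing when they averaged 1 FPKM or more and the authors' status was OK in each library. The test was limma 3.58.1 in R 4.3.3 (intercept on the log2 ratios of the pairs, pseudocount 1 FPKM, eBayes with a trend), using Benjamini-Hochberg adjustment over all 10935 genes and 0.05 as threshold. Libraries were paired as in the Cuffdiff runs, although deviations of same-numbered libraries had a Pearson correlation of -0.024. Paralogue balances used an exact two-sided permutation test (scipy 1.17.1).

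Values per library are given for every member, with SE and adjusted p for the 5 highest and 5 lowest log2 ratios and levels, and a balance test for paralogue pairs; other remodeller genes are named if past the threshold or among the 2 highest and 2 lowest log2 ratios. The members and lists were chosen with earlier results of these data known. Alternatives were other pseudocounts and filters, TPM, median of ratios, no block, no trend, all transcript lengths, GC correction, stricter naming and leaving out each library. The script was tested on simulated data.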

Additional observations from a re-analysis of the deposited data

How the results depend on the processing

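No member passed the threshold in any fit of all 4 libraries, and the count of called genes was 202. It became 124 with median of ratios, 70 with the replicate block and the GC trend removed, 32 with only transcripts named by length, 14 with transcripts of all lengths and 0 with no filter on level (where 2028 genes had an unadjusted p under 0.05); without the replicate block it was 164 and no call on a member changed. Leaving out 1 library gave 0 to 2038 called genes and 0 to 3 called members. The members' median log2 ratio of -0.035 was -0.029 with median of ratios, -0.029 with the first naming steps alone (an alternative added after seeing the data), -0.043 with only transcripts named by length, -0.037 and -0.031 with 0.1 and 5 FPKM added, -0.046 with the replicate block and the GC trend removed and -0.0016 as TPM; it ranged from -0.040 to -0.031 over fits without 1 library and was -0.028 and -0.030 in each pair alone.

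The log2 ratio of Atad2 (-1.53) missed the threshold without a filter (-1.53, adjusted p = 0.51 by limma) and with si-ctrl 1 or si-ctrl 2 left out (adjusted p = 0.055 and 0.054), and ranged from -1.70 to -1.36 over all fits without 1 library or 1 pair. Signs near 0 turned under TPM for Smarcd2 (0.0085), Smarcd3 (0.0096), Chd1 (0.0057), Rbbp4 (0.0065), Ep400 (0.0035) and Actr8 (0.024), and with the GC trend removed for Smarcd3 (0.0077), Chd2 (-0.0056) and Smarca5 (-0.0092). With only transcripts named by length Arid1a turned to 0.42, since its main form of 7419 bases was then left out. With 1 library or 1 pair left out, the values of these genes spanned 0, namely Smarcc2 (-0.015 to 0.040), Smarcd3 (-0.092 to 0.057), Arid2 (-0.12 to 0.0062), Dpf2 (-0.51 to 0.038), Chd1 (-0.075 to 0.018), Chd2 (-0.020 to 0.028), Chd3 (-0.033 to 0.14), Chd7 (-0.0039 to 0.12), Mbd3 (-0.11 to 0.014), Gatad2b (-0.013 to 0.14), Smarca5 (-0.061 to 0.090), Ino80 (-0.030 to 0.068), Ep400 (-0.11 to 0.052), Srcap (-0.23 to 0.012), Actr8 (-0.023 to 0.0012) and Pbrm1 (-0.88 to 0.040). Where not stated, the cause was not tested. Paralogue pairs without overlap numbered 1 with only transcripts named by length, where 2 pairs had both genes, against 8 of 14. The median of all genes moved by under 0.04 under each rescaling. The lack of counts and 2 libraries a group limit what could be told apart.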
